A study of Mus musculus with 6 samples.

Results

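The genes of intestinal calcium absorption described here are *Trpv5*, *Trpv6*, *S100g*, *Atp2b1*, *Calb1*, *Cyp24a1* and *Casr*. The 7 genes were taken by name for their known roles, with earlier results of these data known. Of them, 6 had a probe set of their own among the 19938 genes that could be named. Each of the 6 had a single probe set. *Cyp24a1* was not analysed here. The arrays measured villi from the intestines of 5-day-old (P5) littermates, with 1 array for each of 3 replicates per genotype. Controls were *Trpm7* fl/fl. Mutants, called *Trpm7*-intestine KO or mutant below, were *Trpm7* fl/fl;*Villin1-Cre*. All carried the floxed *Trpm7* alleles, and the mutants also carried a Cre recombinase driven by the *Villin1* promoter, which is active in the epithelium of the whole gut and not in the other cells of a villus. The labels give a C57BL/6 background and list the sex as unknown, whereas the study's methods name a different strain for the floxed line. Values are log2 signals, so a difference of 1 is a 2-fold ratio of signals, and levels of different genes cannot be compared because probes differ in affinity.

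The *Trpm7* signal was 9.11, 8.96 and 9.03 in control villi and 8.03, 7.79 and 7.88 in *Trpm7*-intestine KO villi, so that the groups did not overlap. Enterocyte markers averaged between 12.96 and 13.05 on every array, beside array medians of 6.24 to 6.30, although of these 10 markers 3 rose (*Krt20* by 1.37, *Cdh1* by 0.34 and *Epcam* by 0.27), 2 fell (*Lct* by 0.94 and *Fabp1* by 0.59) and 5 were not called. *Xist*, the transcript of the inactive X chromosome, was at 10.48 in control replicate 1 and 10.18 in mutant replicate 1, with *Eif2s3y* of the Y chromosome at 3.63 and 3.56. Mutant replicates 2 and 3 had *Xist* at 4.76 and 5.26 and *Eif2s3y* at 8.38 and 8.50. Control replicates 2 and 3 held both, with *Xist* at 9.82 and 9.66 and *Eif2s3y* at 7.71 and 7.84, whereas the study counts as many littermates as arrays in each genotype. The source of the mixed signals was not tested. The differences of *Trpv6* and *S100g* are therefore also given with these 2 arrays averaged to 1 sample or left out, and none of the 6 genes was called either way.

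Calcium crosses the absorptive cell in 3 steps. In the classical view it enters at the brush border through the calcium-selective channels TRPV6 and TRPV5. It is then carried through the cytosol by calbindins. It leaves at the basolateral side by the plasma membrane pump PMCA1, the product of *Atp2b1*. For entry, the study proposes TRPM7 and not TRPV6 as the main route in the gut. TRPV6 is the channel of the gut and TRPV5 mainly that of the kidney. Calbindin-D9k, encoded by *S100g*, is the intestinal calbindin of mammals, and calbindin-D28k, encoded by *Calb1*, is found mainly in kidney and brain. The hormonal form of vitamin D, bound to its receptor VDR and the partner RXR, switches on *Trpv6*, *S100g* and *Cyp24a1*, whose product breaks the hormone down. CASR is the receptor that senses extracellular calcium.

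None of the 6 genes rose or fell in *Trpm7*-intestine KO villi at an adjusted p of 0.05 or less from limma, and at an unadjusted p of 0.05 or less the count was 0 as well. Over all 30177 probe sets, 16.9% were called, of which 2427 (8.04% of all) rose and 2661 (8.82%) fell. After each array was centred on its median, 1996 rose and 3456 fell, and the count of the 6 genes was still 0. The 3 mutant values overlapped the 3 control values in each of the 6 genes, while 34.5% of all probe sets showed no overlap. The 6 genes nevertheless differed in how they varied. *S100g* and *Trpv6* varied widely from array to array, and *Trpv5*, *Atp2b1*, *Casr* and *Calb1* stayed within a range of 0.34 in either group. A lower signal in whole villi can come from fewer cells of a type or from less RNA per cell, and these cannot be told apart. By qPCR of whole duodenum at P5, the study found more *Trpv6* and calbindin-D9k (*S100g*) transcript in mutants. It also found more of the hormonal form of vitamin D in their serum. The arrays measured villi of the whole intestine, with 3 arrays per group, so they do not test that duodenal result.

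**Figure D1:**
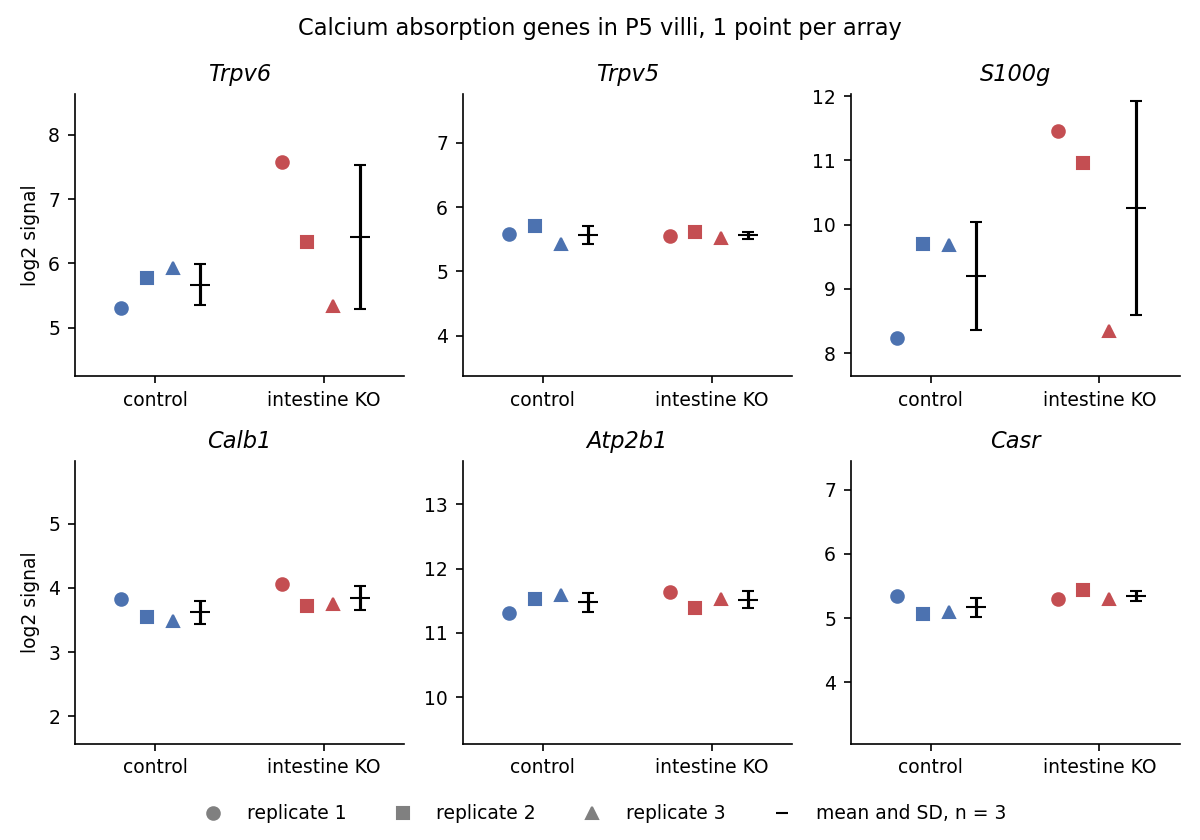
Log2 signal of the 6 genes in P5 villi, with 1 point per array, a marker shape for each replicate and bars for the mean and SD of 3 arrays. All panels span the same number of log2 units. *S100g* and *Trpv6* are high in mutant replicates 1 and 2 and low in mutant replicate 3, and the other genes are nearly level.

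The entry channel *Trpv6* had a log2 signal of 5.31, 5.77 and 5.93 in control replicates 1 to 3 and of 7.58, 6.33 and 5.34 in mutant replicates 1 to 3. Mutant replicates 1 and 2 lay above every control array, and mutant replicate 3 lay below control replicates 2 and 3. The control mean was 5.67 ± 0.32 and the mutant mean 6.42 ± 1.12 (SD over 3 arrays each), a difference of 0.75 with a 95% interval from -0.37 to 1.86 (adjusted p = 0.36 from limma). On the linear scale this is a ratio of 1.68, with an interval from 0.774 to 3.64. Its signal exceeded the array's median in mutant replicates 1 and 2 and in no other array. With control replicates 2 and 3 averaged the difference was 0.84 (adjusted p = 0.43 from limma), and against control replicate 1 alone it was 1.11 (adjusted p = 0.49 from limma).

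The calbindin gene *S100g* showed a similar division of the mutant arrays. It was at 8.23, 9.69 and 9.68 in the control replicates and at 11.45, 10.96 and 8.35 in the mutant replicates. Again mutant replicates 1 and 2 exceeded all controls, and mutant replicate 3 was close to control replicate 1, the lowest of the 6 arrays. The control mean was 9.20 ± 0.84 and the mutant mean 10.25 ± 1.67 (SD over 3 arrays each). The difference of 1.05 had a 95% interval reaching from -0.72 to 2.83 and was not called (adjusted p = 0.42 from limma). As a ratio of signals this is 2.08, between 0.606 and 7.10. With control replicates 2 and 3 averaged it was 1.30 (adjusted p = 0.43 from limma), and against control replicate 1 alone 2.02 (adjusted p = 0.39 from limma). *S100g* lies on the X chromosome. The 2 arrays with *Xist* and no Y-linked signal, control replicate 1 and mutant replicate 1, held its lowest and its highest value.

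Between mutant replicates 1 and 3 the signal of *S100g* differed 8.57-fold and that of *Trpv6* 4.72-fold. The SD of *S100g* over the mutant arrays was larger than that of 99.9% of the 19938 genes, and that of *Trpv6* larger than 99.7%. In the control arrays the corresponding shares were 99.9% and 97.5%. The size of the difference in both genes depended most on mutant replicates 1 and 3, and whether *S100g* was called depended on mutant replicate 3. It also depended on other arrays. Without control replicate 1 the difference was 0.57 in both genes. Without mutant replicate 2 it was 0.70 for *S100g* and 0.79 for *Trpv6*, and neither gene was called in these fits. Without mutant replicate 3, the difference of *S100g* was 2.00 and passed the threshold (adjusted p = 0.026 from limma), in a fit where 6.75% of all probe sets rose. *Trpv6* was then higher by 1.28 and still not called (adjusted p = 0.057 from limma). Without mutant replicate 1 the differences were 0.46 for *S100g* and 0.16 for *Trpv6* (adjusted p = 0.77 and 0.78 from limma).

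**Figure D2:**
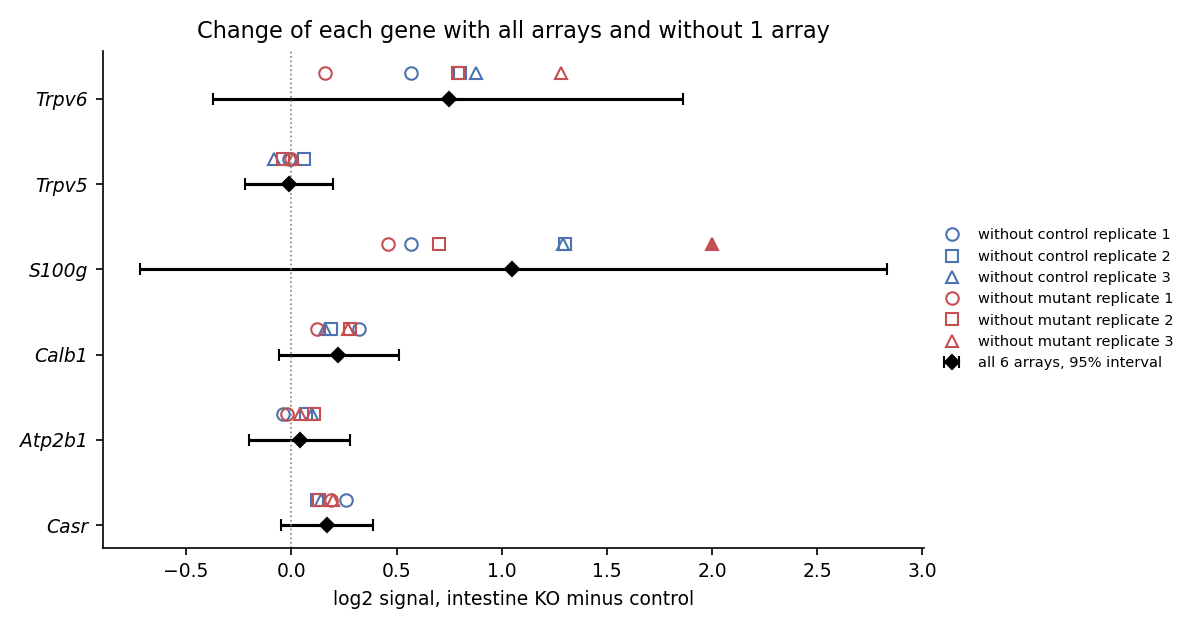
Difference in log2 signal, *Trpm7*-intestine KO minus control, with diamonds and 95% intervals for the fit over all 6 arrays and other markers for fits without 1 array, filled where the adjusted p was 0.05 or less. The filled marker is *S100g* without mutant replicate 3, at 2.00.

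The stretches of 250 bases before the start of these 2 genes are printed because both are classical targets of the vitamin D receptor. Their signals also moved together over the arrays, but other genes did so too, and *S100g* came 181st in likeness to *Trpv6*. Shared control of the 2 genes was not tested. Sequences are from RefSeq on build GRCm38.p6, each read 5′ to 3′ on the gene's strand. The window of *Trpv6* is chr6:41636406-41636655 (minus strand), and that of *S100g* is chrX:162964600-162964849 (minus strand). Capitals mark each 6-base recognition element of nuclear receptors, AGGTCA or GGTTCA or AGTTCA or GGGTCA, on either strand.
Trpv6: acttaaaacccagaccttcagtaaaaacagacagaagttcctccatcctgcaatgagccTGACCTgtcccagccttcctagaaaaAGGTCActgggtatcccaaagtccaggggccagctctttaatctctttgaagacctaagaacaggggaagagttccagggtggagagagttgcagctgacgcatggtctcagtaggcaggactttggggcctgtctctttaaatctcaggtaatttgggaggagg
S100g: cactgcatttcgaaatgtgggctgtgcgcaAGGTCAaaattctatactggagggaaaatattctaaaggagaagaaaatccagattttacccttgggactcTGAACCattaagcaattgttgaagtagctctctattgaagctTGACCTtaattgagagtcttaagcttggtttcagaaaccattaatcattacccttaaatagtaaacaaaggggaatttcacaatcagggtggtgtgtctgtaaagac
The *Trpv6* window holds 2 such elements, which begin 191 and 165 bases before the start, and the *S100g* window holds 3, at 220, 149 and 107 bases. At least 1 element was present in 38.6% of all 32851 promoter windows of this length. VDR with RXR binds a pair of these elements in the same direction with 3 bases between them. No exact pair was found in either window or in those of *Trpv5*, *Atp2b1* and *Casr*, and 13 of all windows (0.0396%) held one. With up to 2 mismatches allowed, 5246 of all windows (16%) held a pair and none of the windows of these 5 genes did. Neither window held the core element of the gut factor CDX2, TTTATG or TTTATA, which was present in 20.9% of all windows and in that of *Trpv5* at 176 and 43 bases before the start. These letters say nothing of sites outside the windows.

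*Trpv5*, which adjoins *Trpv6* on chromosome 6 with no gene between them, was at 5.58, 5.71 and 5.43 in control and at 5.55, 5.62 and 5.52 in mutant villi. All its values fell within 0.28 of each other and below the arrays' medians. The difference was -0.01, with a 95% interval from -0.22 to 0.20 (adjusted p = 0.96 from limma), or between 0.860 and 1.15 as a ratio. Mutant replicates 1 and 3, which differed by 2.24 in *Trpv6*, differed by 0.03 in *Trpv5*.

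*Atp2b1*, the exit pump, stood at 11.31, 11.52 and 11.59 in control and at 11.64, 11.38 and 11.53 in mutant villi, and each group spanned nearly the same range. The difference was 0.04, between -0.20 and 0.28 (adjusted p = 0.83 from limma), or between 0.873 and 1.22 as a ratio. Its sign turned to -0.01 after quantile normalization or centring on the median.

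*Calb1*, the calbindin of kidney and brain, was at 3.82, 3.55 and 3.49 in control and 4.06, 3.72 and 3.75 in mutant villi. The difference of 0.22 had an interval from -0.06 to 0.51 (adjusted p = 0.28 from limma). *Casr* was at 5.34, 5.06 and 5.10 in control and 5.30, 5.43 and 5.29 in mutant villi. Its difference was 0.17, between -0.05 and 0.39 (adjusted p = 0.28 from limma). Control replicate 1 had the highest control value of both genes, and the other 2 control arrays lay below all mutant arrays.

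The arrays give no detection call, so these signals were set beside 1205 probe sets of olfactory and vomeronasal receptors, genes of the nose that serve here as a reference for genes without transcript in villi. The 95th percentile of these receptors lay between 5.28 and 5.35. *Calb1* exceeded 36.7% to 69.1% of them, depending on the array, and *Casr* 91.8% to 95.7%. *Trpv5* exceeded 96.5% to 97.8%. *Trpv6* exceeded 94.8% of them in control replicate 1, 95.7% in mutant replicate 3 and 99.9% in mutant replicate 1. *S100g* and *Atp2b1* lay above all of these receptors on every array. Since probes differ in affinity, this ranks signals and is no test of expression, and changes of *Trpv6*, *Trpv5*, *Casr* and *Calb1* are ratios of signals rather than of transcript amounts.

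**Figure D3:**
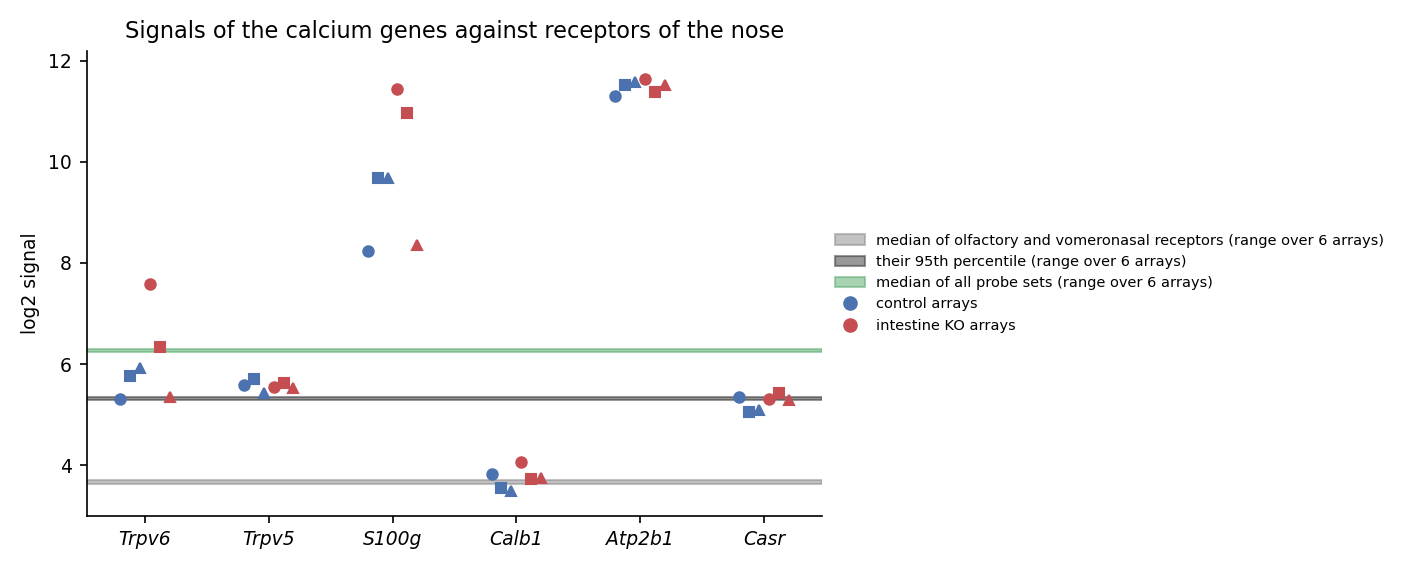
Log2 signals of the 6 genes on each array, with bands for the median and 95th percentile of 1205 olfactory and vomeronasal receptor probe sets and for the median of all probe sets. *S100g* and *Atp2b1* lie above all bands on every array, *Calb1* lies near the receptors' median, and *Trpv6* crosses the median of all probe sets in mutant replicates 1 and 2.

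Genes with the pattern most like that of *Trpv6* or *S100g* were ranked by the root mean square difference of the 6 signals, each gene centred on its mean. For *Trpv6* the nearest were *Gsta4*, a glutathione transferase (0.22), the stomach peptide *Tff1* (0.34), the gland mucin *Muc6* (0.34), the carboxylesterase *Ces2b* (0.36) and the trefoil peptide *Tff2* (0.36). *Gsta4* ran from 7.61 to 7.71 in control villi and was at 9.78, 8.69 and 7.39 in the mutant replicates. For *S100g* the nearest of all genes was *Trpv6* (0.58), followed by *Gsta4* (0.61), the decarboxylase *Ddc* (0.63), *Klk1b22* (0.64), a kallikrein with near-identical relatives, and the interferon-induced *Gbp3* (0.65). Seen from *Trpv6*, *S100g* came 181st. These likenesses rest on 6 arrays and are given as a description.

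In 23 genes the signal of mutant replicate 1 exceeded that of mutant replicate 3 by at least 2, with *S100g* the 8th and *Trpv6* the 20th in size, and in 38 genes it was lower by at least 2. The following genes were chosen after their values were seen. The largest difference of the 23 was that of *Akp3*, an alkaline phosphatase of the small intestine, with 6.57 to 6.86 in control villi and 12.46, 10.31 and 6.90 in the mutant replicates. *Hmox1*, heme oxygenase, was at 8.73 to 8.97 in control villi and at 12.91, 12.21 and 9.22 in the mutant replicates. As with *S100g*, mutant replicates 1 and 2 were high and mutant replicate 3 lay near the controls.

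Some transcripts of stomach mucosa and duodenal glands were high on mutant replicate 1. *Gkn2*, a gastrokine, was at 7.56 on it, at 4.98 and 4.83 on mutant replicates 2 and 3 and at 4.36 to 4.52 in control villi. *Tff2* was at 8.17 on mutant replicate 1 and between 5.51 and 5.84 on the other 5 arrays. The mean over 13 markers of this kind was 6.67 on mutant replicate 1 and between 5.34 and 5.58 elsewhere, while *Cblif*, gastric intrinsic factor, was at 4.36 on mutant replicate 1 and the acid pump genes *Atp4a* and *Atp4b* were at 5.69 and 6.35 on it and at 5.74 and 6.46 on mutant replicate 2. *S100g* was also high on mutant replicate 2, where this mean was 5.58. None of the 13 markers was called, but a comparison of group means can hardly call a rise on 1 array alone. The part of such tissue in the *Trpv6* and *S100g* signals was not tested.

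Calcium absorption is strongest in the duodenum, so markers of position along the gut are given beside these results. Of 6 markers of the proximal small intestine, 4 fell, *Slc46a1* rose and 1 was not called. *Pdx1* was at 6.95, 7.53 and 7.46 in control and at 6.67, 6.56 and 6.07 in mutant villi. *Cybrd1*, the duodenal iron reductase, was at 10.58, 10.37 and 10.35 in control and at 10.12, 9.22 and 8.77 in mutant villi. The mean over the 6 markers was 10.20 to 10.38 in control villi and 10.07, 9.91 and 9.67 in the mutant replicates. Among the mutants it was lowest in replicate 3, as were *S100g* and *Trpv6*, but mutant replicates 1 and 2 lay below the controls in this mean and above them in both genes. Of 4 ileal markers, *Fabp6* and *Slc10a2* rose and 2 were not called, and their mean was 8.04 to 8.60 in control villi and 10.08, 9.91 and 9.68 in the mutant replicates. The 4 measured markers of the colon had means from 5.12 to 5.36. The part of regional composition in the calcium gene signals was not tested.

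**Figure D4:**
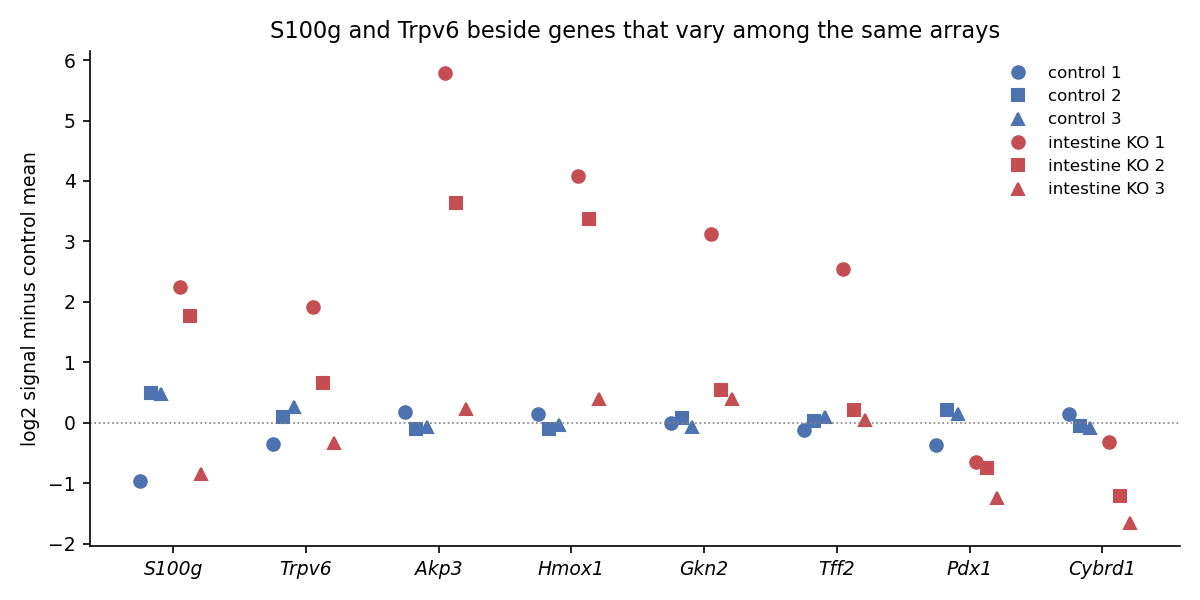
Log2 signal minus the control mean, per array, for *S100g*, *Trpv6* and 6 genes chosen after their values were seen. *S100g*, *Trpv6*, *Akp3* and *Hmox1* are high in mutant replicates 1 and 2, *Gkn2* and *Tff2* are high in mutant replicate 1 alone, and *Pdx1* and *Cybrd1* are lower in all mutant replicates.

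All 5 measured markers of goblet cells fell, and their mean was between 11.86 and 11.97 in control villi and between 9.39 and 9.56 in mutant villi. Enteroendocrine cells are known to express *Casr*, and their 9 markers averaged 8.52 to 8.79 in control and 8.41 to 8.71 in mutant villi. Of the 9, 2 rose (*Gcg* by 1.19 and *Chga* by 0.41), 3 fell (*Gip* by 1.17, *Sst* by 1.06 and *Cck* by 0.84) and 4 were not called. Enteric neurons are known to express *Calb1*, and of 5 measured markers of enteric neurons and glia only *S100b*, a glial gene, was called. *S100b* fell by 2.06, and the neuronal markers *Elavl4* and *Uchl1* had differences of -0.01 and -0.00. Both lay below the arrays' medians, with *Elavl4* at 3.75 to 3.98, so these differences say little about neurons. Leukocyte markers averaged 6.98 to 7.20 in control villi and 7.84, 8.31 and 9.16 in the mutant replicates, highest in mutant replicate 3. Of these 5 markers, *S100a8* and *S100a9*, genes of neutrophils, rose by 3.31 and 3.46, *Cd74* fell by 0.54, and *Ptprc* and *Lyz2* were not called. Of 5 fibroblast markers, *Dcn* and *Pdgfra* rose by 1.03 and 0.56 and 3 were not called, and of 5 smooth muscle markers none was called. None of 5 markers of tuft cells was called, and of 4 endothelial markers *Tek* fell by 0.81. The part of these cells in the results was not tested.

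Some regulators of the entry channels were called, and the channels themselves were not. The channels had low signals and the interval of *Trpv6* was wide, so no contrast with their regulators is drawn. Of 10 genes whose products bind or regulate TRPV5 and TRPV6, 5 rose, 1 fell and 4 were not called. Their median change was 0.26, beside 0.00 over all genes. Over all 19938 genes, 9.39% rose and 10.1% fell. Of the 10, 2 lay below the median signal, and in the fit without dim probe sets 34.8% of all were called. *S100a10* and *Anxa2*, which together help to place the channels in the plasma membrane, rose by 0.93 and 0.71 (adjusted p = 7.0e-04 and 8.7e-04 from limma). *S100a10* was at 11.39, 11.65 and 11.71 in control and at 12.55, 12.53 and 12.46 in mutant villi, so that all mutant arrays lay above all controls. *Sgk1*, a kinase that raises TRPV5 at the cell surface, rose by 1.14, from 9.60 to 9.74 up to 10.59 to 11.10. *Bspry*, which lowers TRPV5 activity, rose by 0.94, and *Fkbp4*, an immunophilin that inhibits TRPV5, by 0.41. *Pdzd3*, a scaffold that binds both channels, fell by 0.39. The call of *Pdzd3* was lost without mutant replicate 2 or 3 (adjusted p = 0.054 and 0.058 from limma), and that of *Fkbp4* without control replicate 2 or any 1 mutant replicate (adjusted p from 0.051 to 0.092 from limma). Of the 4 other TRPV channels none was called, with *Trpv3* at a difference of 0.55 (adjusted p = 0.070 from limma) and *Trpv2* at -0.17 (adjusted p = 0.36 from limma).

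Of 11 other calcium pumps and exchangers, 2 fell, none rose and 9 were not called. *Atp2a3*, the SERCA3 pump that fills the endoplasmic reticulum, was at 8.42, 8.12 and 8.17 in control and at 6.83, 6.56 and 6.68 in mutant villi. It fell by 1.55, with the groups well apart (adjusted p = 1.3e-04 from limma). *Atp2c2*, the SPCA2 pump of the secretory pathway, fell by 0.48. Of 9 other calcium entry and store channels, 2 fell, namely the store sensor *Stim2*, which fell by 0.45, and the inositol trisphosphate receptor *Itpr2*, which fell by 0.44. None of the 5 other cytosolic calcium-binding genes was called, with *Calm2* at 0.14 and *Pvalb* at 0.13 (adjusted p = 0.38 and 0.57 from limma).

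Of 5 claudins linked to calcium flow between cells, 1 fell and 4 were not called. *Cldn19* was at 9.06, 9.07 and 9.14 in control and at 7.12, 7.53 and 7.50 in mutant villi, and fell by 1.71 (adjusted p = 1.1e-04 from limma).

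Of 10 genes of vitamin D reception, synthesis and transport, 1 fell and 9 were not called. *Vdr* itself was at 8.97, 9.01 and 8.97 in control and at 9.34, 8.92 and 9.11 in mutant villi (difference 0.14, adjusted p = 0.45 from limma), highest in mutant replicate 1. *Rxra*, its partner, fell by 0.44 (adjusted p = 0.02 from limma), a call that was lost without control replicate 1 or 2 or mutant replicate 1 or 2 (adjusted p from 0.057 to 0.075 from limma). Of 7 other vitamin D targets, 1 rose, 2 fell and 4 were not called. *Abcb1a*, the drug pump P-glycoprotein, rose by 2.75, from 9.35 to 9.56 in control villi up to 12.07 to 12.45. *Slc37a2*, a sugar phosphate exchanger, fell by 1.18 and *Slc34a2*, the intestinal phosphate carrier, fell by 0.61.

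Of 7 hormones and receptors listed for calcium balance, 1 rose, 1 fell and 5 were not called. The list includes receptors that are not specific to calcium, such as that of growth hormone. The growth hormone receptor *Ghr* fell by 0.96, from 9.94 to 10.10 in control villi down to 8.91 to 9.27. *Stc1*, stanniocalcin, rose by 0.38 at signals of 4.71 to 5.30, a call lost without mutant replicate 2 or 3 (adjusted p = 0.050 and 0.059 from limma). Over all these lists, 66 genes were measured, of which 7 rose (10.6%) and 10 fell (15.2%), with a median change of -0.02. Over all 19938 genes, 9.39% rose and 10.1% fell.

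**Figure D5:**
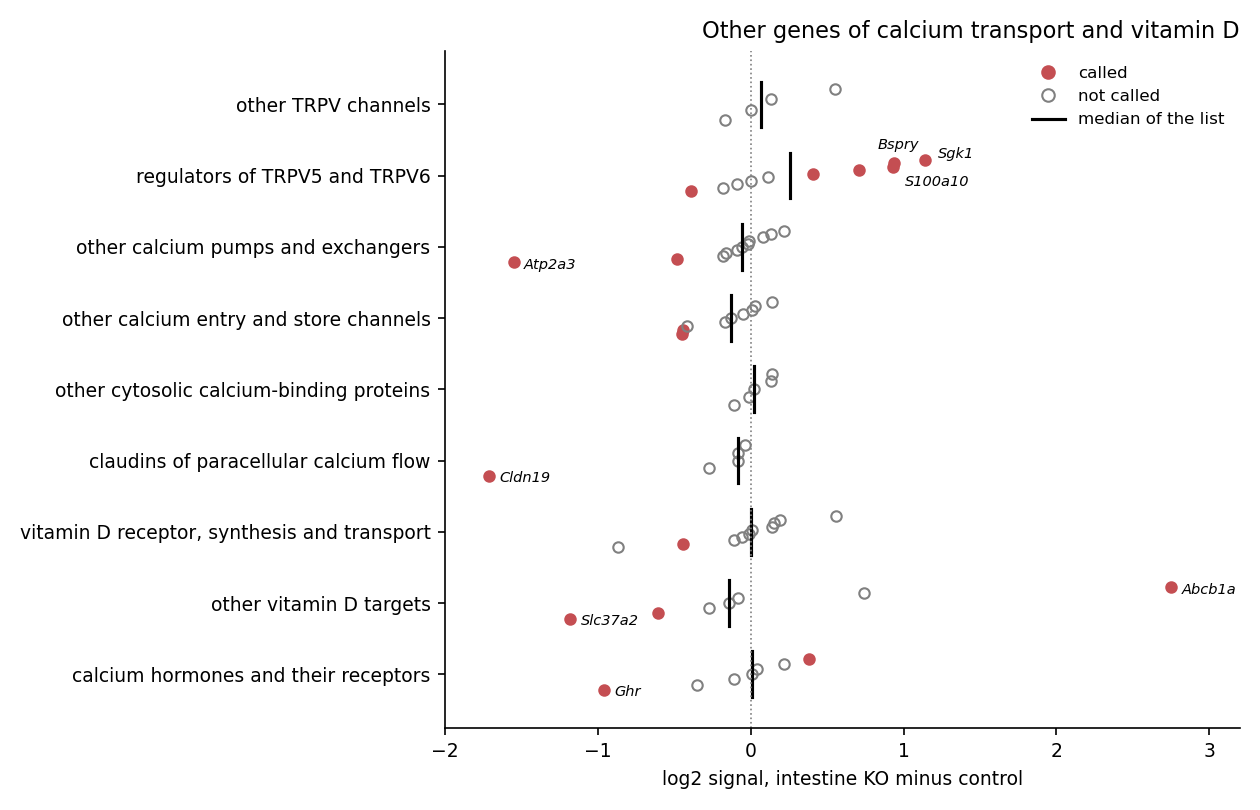
Difference in log2 signal, *Trpm7*-intestine KO minus control, for the genes of 9 lists of calcium transport and vitamin D, with a bar for each list's median. Filled points have an adjusted p of 0.05 or less from limma, and the called genes with the larger differences are named, with *Abcb1a* highest at 2.75 and *Cldn19* lowest at -1.71.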

How the data were processed

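Total RNA of P5 villi was labelled with biotin by the Affymetrix whole-transcript protocol and hybridised to 1 array per replicate. The authors deposited a table of normalized log2 signals with 2 decimals, which holds a value for every probe set on every array. How background was corrected and probes were summarised and normalized is not stated in the labels or methods read. Precision is limited by having 3 arrays in a group, and p-values measure the spread between arrays. The study counts these as littermates, beside which the sex-linked signals of control replicates 2 and 3 are reported. Over probe sets, control replicates 2 and 3 correlated at 0.9969, and each correlated with control replicate 1 at 0.9948 and 0.9943. Whether they share material was not tested. If they do, the spread between control arrays understates that between animals.

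Of 30177 probe sets, 21789 had 1 gene symbol in the platform annotation, 1621 had several and 6767 are unnamed here. Symbols were updated through Entrez IDs in RefSeq. A gene was its probe set with the highest mean. *Cyp24a1* matched no probe set by a single symbol and was not analysed here. Mutant and control arrays were compared over all probe sets with limma 3.58.1 in R 4.3.3 (lmFit and eBayes, prior of 3.92 degrees of freedom), with Benjamini-Hochberg adjustment and a threshold of 0.05. The script was tested on simulated data. The 7 genes, the lists and the naming rule were chosen with earlier results of these data known. The rule named the 7 genes, every called gene of a list (for a list with none, at most the 2 with the largest differences) and the 5 genes nearest in pattern to *Trpv6* and *S100g*. *Vdr* was named outside this rule, as the vitamin D receptor, after its values were seen, and so were called genes of marker lists. Stomach markers and the genes compared between mutant replicates were added after the values were seen. Alternatives were another variance prior, weights per array, a block for replicate number, other normalization, filters, an offset, Student's test, averaging or leaving out control replicates 2 and 3, and leaving out each replicate. *Calb1* and *Cyp24a1* are not in the RefSeq promoter table used. pandas 2.3.3 and matplotlib 3.10.9 were used in Python 3.11.15.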

Additional observations from a re-analysis of the deposited data

How the results depend on the processing

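Across 17 alternatives, 91 of 98 recomputed differences of the 6 genes kept their direction and their side of the threshold. Differences that rounded to 0.00 were counted as kept, among them *Atp2b1* with array weights and *Casr* against control replicate 1 alone. Against that array alone *Calb1* differed by 0.02. No gene was called with any normalization, filter, weighting or other test. The filter on dim probe sets left only *S100g* and *Atp2b1*, and no gene had a further probe set to try. Without 1 replicate, the difference ran from 0.46 to 2.00 for *S100g*, 0.16 to 1.28 for *Trpv6*, 0.12 to 0.32 for *Calb1*, 0.12 to 0.26 for *Casr*, -0.08 to 0.06 for *Trpv5* and -0.04 to 0.11 for *Atp2b1*. *S100g* without mutant replicate 3 (adjusted p = 0.026 from limma) was the 1 call, so the count that rose ran from 0 to 1. The sign of *Trpv5* turned without control replicate 2 (0.06) and without mutant replicate 3 (0.01). That of *Atp2b1* turned without control replicate 1 (-0.04), without mutant replicate 1 (-0.02) and, at -0.01 each, after quantile normalization and median centring. The causes were not tested. Over all probe sets 5088 were called, against 2450 with Student's test, 1733 with control replicate 1 as the only control, where the lone array is assumed to vary like the mutants, and 3249 to 4385 without 1 replicate.

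Whether arrays of the same replicate number were paired cannot be told from these signals. Deviations from the group means of same-numbered arrays correlated at 0.17, 0.04 and 0.12 over probe sets. Control replicate 2 correlated better with mutant replicate 3 (0.09), while replicates 1 and 3 correlated best with the array of their own number. Deviations within a group cancel out, so these correlations are not independent. With the replicate block, 4957 probe sets were called, none of the 6 genes among them, and of the other calcium and vitamin D genes 7 rose and 11 fell. The block left the differences of *S100g* (1.05, adjusted p = 0.41 from limma) and *Trpv6* (0.75, adjusted p = 0.36 from limma) uncalled.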
